A study of Mus musculus with 188 samples.

Results

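Mouse brain slice cultures exposed for 48 h to hemoglobin already bound by haptoglobin (HbHp, 8 libraries) were compared with cultures exposed for 48 h to free hemoglobin (Hb, 10 libraries), both at 200 µM. The 18 libraries were taken by their treatment labels from the 188 of the series. Poly(A) RNA of whole cultures was sequenced, and genes were counted over the mouse genome. The question the pair addresses is how the transcriptional response of the tissue to hemoglobin differs when the protein arrives in complex with its plasma scavenger. The slices were coronal sections of C57BL/6J wild-type mice of both sexes, 6 to 8 weeks old, kept at an air-liquid interface and treated on culture day 7. The library codes of the Hb group began with F in 5 libraries and with M in 5, and those of the HbHp group in 4 each. Untreated control cultures of 48 h (9 libraries) are given beside both groups. Cultures given Hp without Hb at 48 h (11 libraries) were made only at 400 µM, so that no Hp group matches the 200 µM HbHp group in dose. Hb and Hp were human proteins added to mouse tissue, without blood flow or circulating leukocytes. The labels do not say whether libraries of 1 group came from separate animals, so p-values measure the spread between libraries, which may be partly technical.

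Total counts per library were 25286095 to 50785394 in the Hb group, 25379899 to 32416072 in the HbHp group and 26537187 to 47468700 in the controls. All 8 HbHp libraries belonged to batch 3 and round 2. The labels give the batch without saying what it is, and round is used here for the E1 or E2 that opens a library name, which the labels do not explain. The Hb group was spread over 6 libraries of batch 2 and round 1 (replicates 1 to 6), 2 of batch 2 and round 2 (replicates 7 and 8), 1 of batch 3 and round 1 (replicate 9) and 1 of batch 3 and round 2 (replicate 10). Only Hb replicate 10 thus shared both labels with the HbHp group. Fold changes are given on the log2 scale as HbHp minus Hb, with their standard error (SE), from a fit of 55 libraries (control, Hb and HbHp, 24 h and 48 h) with batch and round as terms. Because these terms remove what all libraries of a batch or round share, a fitted fold change can be smaller or larger than the difference between the raw group levels. Raw levels are given as CPM, the counts of a gene scaled to the same total in every library, which are not corrected for batch or round. HbHp replicate 1 stood apart from the other 7 libraries of its group, with a GC slope of 0.465 against -0.106 to 0.0889 (the slope of its deviations in log2 CPM against the GC content of transcripts) and a length slope of -0.898 against -0.169 to -0.00824. Results that rest on it are given with and without it.

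Hemoglobin released from lysed red cells oxidises and gives up heme, and haptoglobin binds it tightly and holds the heme in the protein. Cells break heme down with heme oxygenase-1 (Hmox1) to biliverdin, carbon monoxide and iron. Heme and oxidants both bear on the transcription factor NRF2, which in its resting state is bound by KEAP1 and degraded, and whose targets make glutathione, reduce peroxides and quinones, and store iron. The repressor BACH1 occupies many of the same DNA elements and is displaced by heme. NRF2 with a small MAF partner binds the antioxidant response element, whose core is TGACNNNGC.

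The core was searched on both strands of the 250 bases before the start site of each gene with a RefSeq promoter entry (build GRCm38.p6; the counts themselves were made on GRCm39). A gene with several entries was counted once, as holding the core if any of them did. The core was present in 3112 of 27025 genes (11.5%). It was present in 1669 of the 12119 tested genes with an entry (13.8%), and in 9 of the 29 listed NRF2 targets with an entry (31%). Of the listed targets that passed the test below, 5 of 12 held it, and of those that did not, 4 of 17. The 5 stretches follow because they are the matches in promoters of listed targets that were called. Each reads 5′ to 3′ on the plus strand with the match in capitals, and a match is a description of the letters, not evidence of binding.
Gclm, chr3:122245382-122245472: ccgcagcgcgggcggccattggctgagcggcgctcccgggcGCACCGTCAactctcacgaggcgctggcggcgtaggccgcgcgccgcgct
Prdx1, chr4:116685425-116685515: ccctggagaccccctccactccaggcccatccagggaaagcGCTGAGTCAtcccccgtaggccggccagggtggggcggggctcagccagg
Gsta3, chr1:21240423-21240513: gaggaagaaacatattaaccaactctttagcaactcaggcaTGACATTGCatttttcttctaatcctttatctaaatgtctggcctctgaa
Txnrd1, chr10:82859073-82859163: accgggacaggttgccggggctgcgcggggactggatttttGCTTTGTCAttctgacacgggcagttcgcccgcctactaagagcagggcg
Mgst1, chr6:138140430-138140520: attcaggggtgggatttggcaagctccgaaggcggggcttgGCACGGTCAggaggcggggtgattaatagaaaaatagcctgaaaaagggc
All 5 genes lie on the plus strand. The match began 134 bases before the start site in Gclm, 133 in Prdx1, 121 in Gsta3, 92 in Txnrd1 and 56 in Mgst1, and it read in the forward direction only in Gsta3.

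At 48 h, 342 of 16221 genes differed between HbHp and Hb at an adjusted p under 0.05 (2.11%; edgeR quasi-likelihood test, Benjamini-Hochberg adjustment), 257 higher with HbHp (1.58%) and 85 lower (0.524%). These genes are called below. At an unadjusted p under 0.05 there were 2728 genes (16.8%), 1680 higher (10.4%) and 1048 lower (6.46%), against which the unadjusted counts of the lists below stand. Most differences were small: the median absolute log2 fold change of the called genes was 0.284, and 14 were at least 1.5-fold higher and 15 at least 1.5-fold lower. The genes that rose most were the glutathione transferase Gsta3, the growth factor Ereg, the peroxiredoxin Prdx1, the lectin Clec4n, the small GTPase Arl4d, the quinone reductase Nqo1, the transferrin receptor Tfrc, the glutathione synthesis gene Gclm, the sulfiredoxin Srxn1 and the pseudokinase Trib3. The genes that fell most were the matrix and guidance genes Thbs1, Slit3 and Npnt, the hypoxia-inducible factor Hif3a, Gm45640, Prss35, Dlk2, Plin4, Cda and Tmem179. In raw CPM, every HbHp library lay above every Hb library for 80 genes (0.493%) and below for 41 (0.253%).

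The number of genes called depended on single libraries. In the fit, 1 Hb library and 2 controls (replicate 9 of 48 h and replicate 20 of 24 h) shared batch 3 and round 2 with the HbHp group. Without both controls 7 genes were called, namely Gclm, Prdx1, Ikbkg, Zfp68, Tfrc and Alas1, which were higher, and Tmem176b, which was lower. Fitted to the 18 libraries alone, without any control, 2 were called, Sqstm1 higher and Cdc6 lower. Left out singly, 8 libraries lowered the count of 342 by more than 1.5 times. It became 77 without control replicate 20 of 24 h, 133 without control replicate 9 of 48 h, 217 without control replicate 19 of 24 h, 125 without HbHp replicate 5, and 197, 215, 214 and 141 without Hb replicates 2, 5, 8 and 10. Without HbHp replicate 1 it was 231. Within round 2 alone (3 Hb and 8 HbHp libraries with the controls of that round and a batch term), 16 genes passed (0.0989%). Of these, 10 were higher (0.0618%; Sqstm1, Gclm, Srxn1, Tfrc, Cat, Gsta3, Nr1d2, Gm49359, Fam13a and Zfp758) and 6 lower (0.0371%), among them Cdc6, Adssl1, Rasgef1c, Dlk2 and Ccl12. Within batch 3 alone (2 Hb libraries) edgeR called none, with 864 genes at an unadjusted p under 0.05.

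The genes described below differ in how often they passed when 22 libraries were left out in turn. Gclm, Prdx1, Nqo1, Gsta3, Txnrd1, Sqstm1, Cat, Esd, Alas1, Tfrc, Slc30a1, Ikbkg, Gbe1, Sirt1, Nr1d2, Hif3a, Cda, Gm45640, Tmem176a, Tmem176b, Pdxk and Calr passed in all 22 fits. Srxn1, Blvrb, Dlk2 and Arl4d lost the call only without Hb replicate 10 (adjusted p = 0.057, 0.0648, 0.0618 and 0.076), and Clec4n only without control replicate 20 of 24 h (adjusted p = 0.074). Mgst1 and Cdc6 passed in 20 of 22, Fasn in 19, Prss35 in 18, Pgd in 17, Kcnj10 in 16 and Tk1 in 15. Trib3 and Npnt passed in 11, Ereg in 10, Elovl6 in 9, Gsr, Ireb2 and Tmem179 in 6, Slit3 and Hspa5 in 4, and Thbs1 and Plin4 in 3.

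The called genes were not spread evenly over base composition. The genes were divided into 5 equal groups by the GC content of their longest transcript. In the group with the lowest GC content (28.7 to 43.7%), 183 were called higher and 3 lower, while in the group with the highest (55.6 to 76.3%) 2 were called higher and 42 lower. The median log2 fold change fell across the 5 groups from 0.133 to 0.0585, -0.000458, -0.0541 and -0.109. The GC tilts of the controls of batch 3 and round 2 were -0.340 (48 h, replicate 9) and -0.387 (24 h, replicate 20), against medians of -0.000665 in the Hb and -0.0855 in the HbHp group. A negative tilt means that genes of high GC content stood relatively higher than those of low GC content. With counts corrected for GC content and length, 75 genes were called (0.462%), 38 higher (0.234%) and 37 lower (0.228%), of which 34 and 25 were also called without the correction. Genes named below as called are therefore given with their corrected value where the correction ends the call.

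**Figure D1:**
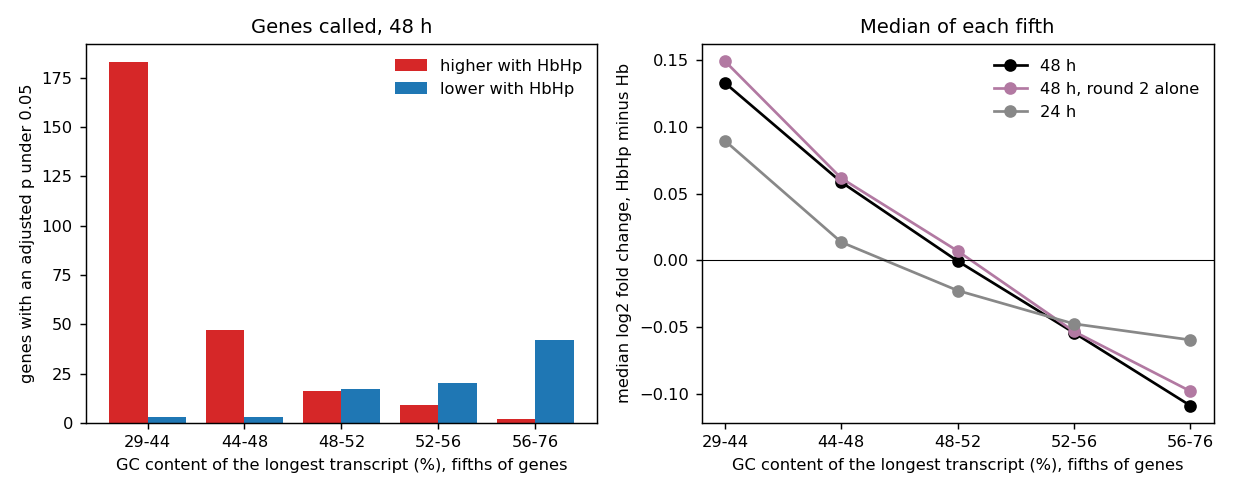
Genes called higher (red) or lower (blue) with HbHp at 48 h (left, number of genes) and the median log2 fold change HbHp minus Hb (right), in 5 equal groups of genes ordered by the GC content of the longest transcript in percent. The numbers called higher run from 183 in the group with the lowest GC content to 2 in that with the highest, and the medians at 48 h run from 0.133 to -0.109.

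Of 36 listed targets of NRF2, 14 were called higher with HbHp and none lower. All 36 had a positive log2 fold change (median 0.287, against 0.00839 over all genes tested), although that of Ftl1, at 0.01, kept its sign in only 36 of 42 alternative fits and that of Gsr and Slc7a11 turned with neither term. With the GC and length correction all 36 were again positive and 10 were called, and 5 were called with the correction and without HbHp replicate 1. Srxn1, Nqo1, Gsta3 and Esd were among those not called then (adjusted p = 0.0631 to 0.0684). The number called fell to 9 without control replicate 20 of 24 h, to 8 without Hb replicate 10, to 4 in round 2 alone and to 2 without both controls of batch 3 and round 2, while the median stayed between 0.261 and 0.305 in these fits. EdgeR called 1 in the 18 libraries alone (median 0.315). It called 0 in batch 3 alone (median 0.301) and 0 with a replicate block by title number and the round term (median 0.402). The list was assembled with earlier results of these data known.

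Gclm, the modifier subunit of the enzyme that starts glutathione synthesis, showed the smallest adjusted p of the named genes. Its level was 83.3 to 140 CPM in controls (median 117), 147 to 225 CPM in the Hb group (median 171) and 218 to 273 CPM in the HbHp group (median 232). The control range lay below both treated groups, and 4 of the 8 HbHp libraries exceeded every Hb library. The fitted difference was 0.73 (SE 0.0943, adjusted p = 5.85e-06), and it was 0.70 in round 2 alone (adjusted p = 0.0068). The catalytic subunit Gclc followed with 0.34, which missed the threshold (adjusted p = 0.0562).

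Several peroxide-reducing genes were called higher, by 0.36 to 0.91 on the log2 scale. Prdx1, a peroxiredoxin, ranged from 650 to 1195 CPM with Hb (median 901) and from 1595 to 3508 CPM with HbHp (median 1866), with 428 to 790 CPM in controls. The 3 groups overlapped only between control and Hb, and the highest HbHp value was that of replicate 1. The difference was 0.91 (SE 0.137, adjusted p = 0.000157) and 0.75 without that library (adjusted p = 0.000105). Srxn1, which reactivates overoxidised peroxiredoxins, ranged from 152 to 256 CPM with Hb (median 191) and from 289 to 440 CPM with HbHp (median 335). All 8 HbHp libraries were above the Hb range, with a difference of 0.71 (SE 0.164, adjusted p = 0.0152). Catalase (Cat) likewise showed no overlap, at 154 to 225 CPM with Hb and 256 to 296 CPM with HbHp, and rose by 0.43 (adjusted p = 0.00688; with the correction and without HbHp replicate 1, 0.0508). Txnrd1, the cytosolic thioredoxin reductase, was 298 to 435 CPM with Hb and 386 to 431 CPM with HbHp. Its raw ranges overlapped, since the Hb libraries of round 1 were as high as the HbHp libraries, whereas the 3 of round 2 lay at 298 to 335 CPM. The fitted rise was 0.36 (adjusted p = 0.00859). In the thioredoxin and peroxiredoxin list 16 of 18 members were positive and 4 were called higher (median 0.107).

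Some detoxifying enzymes were called higher as well. Nqo1, a quinone reductase, was 12.7 to 26.9 CPM with Hb (median 18.6) and 22.4 to 43.6 CPM with HbHp (median 26.3), against 7.24 to 13.9 CPM in controls. Here 3 of 8 HbHp libraries exceeded the Hb range, and the difference was 0.82 (adjusted p = 0.00688). Gsta3, an alpha-class glutathione transferase, was low throughout, at 1.82 to 4.65 CPM with Hb and 4.90 to 9.93 CPM with HbHp. The groups did not overlap, and the fold was the largest of the rising genes (log2 1.24, SE 0.267, adjusted p = 0.00857). The microsomal transferase Mgst1 rose by 0.48 (adjusted p = 0.0152, corrected 0.101) and Gsta4 by 0.46 (adjusted p = 0.0397, corrected 0.169). The transferase Gstm1 was not called, at 231 to 369 CPM with Hb and 176 to 391 CPM with HbHp. Its ranges overlapped and its difference was 0.31 (adjusted p = 0.23; without HbHp replicate 1, 0.0745). Of 32 listed genes of glutathione synthesis and use, 24 were positive and 6 were called higher (median 0.102).

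Among the remaining targets, Sqstm1, the autophagy receptor that also binds KEAP1, was 393 to 576 CPM with Hb (median 495) and 743 to 916 CPM with HbHp (median 854). No library overlapped, and controls were at 325 to 536 CPM. The difference was 0.47 (SE 0.0963, adjusted p = 0.00658) and 0.61 in round 2 alone (adjusted p = 0.00434). Esd, a glutathione-linked esterase, rose by 0.49 (adjusted p = 0.00945) and Pgd, an NADPH-producing enzyme of the pentose phosphate path, by 0.27 (adjusted p = 0.0275), each with all 8 HbHp libraries above the Hb range. The Pgd call was lost with the correction (adjusted p = 0.137), as were those of Gsr (0.25, corrected adjusted p = 0.106) and Ephx1 (0.29, corrected adjusted p = 0.211). Slc7a11, the cystine importer, differed by 0.82 with an adjusted p of 0.0724, over raw ranges of 86 to 317 CPM with Hb and 158 to 233 CPM with HbHp that overlapped.

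**Figure D2:**
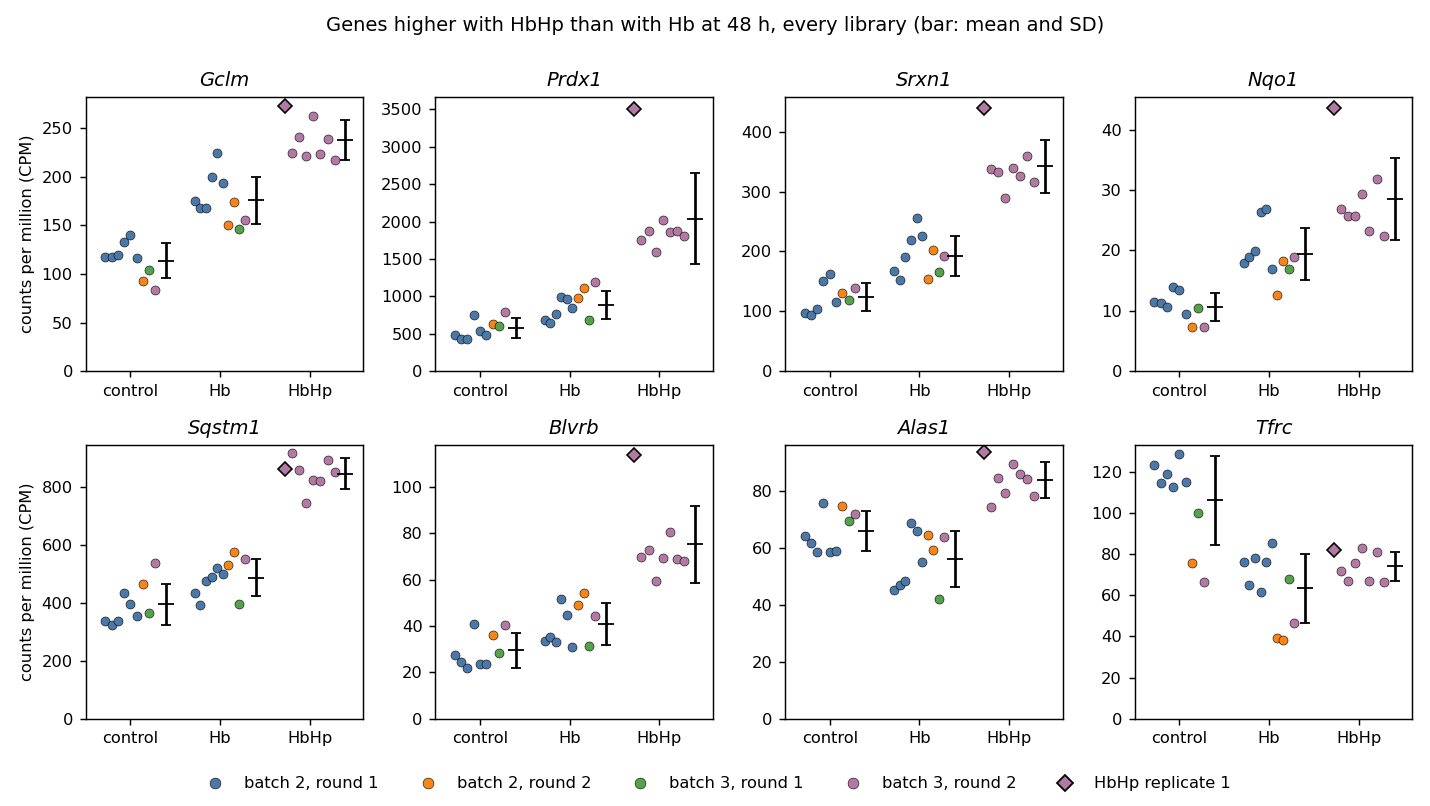
Level in CPM of 8 genes called higher with HbHp in every 48 h library of the control, Hb and HbHp groups, coloured by batch and round, with the group mean and SD as bars and HbHp replicate 1 as a diamond. For Prdx1, Srxn1, Sqstm1, Blvrb and Alas1 all 8 HbHp libraries lie above the 10 Hb libraries, whereas the groups overlap for Gclm, Nqo1 and Tfrc.

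**Figure D3:**
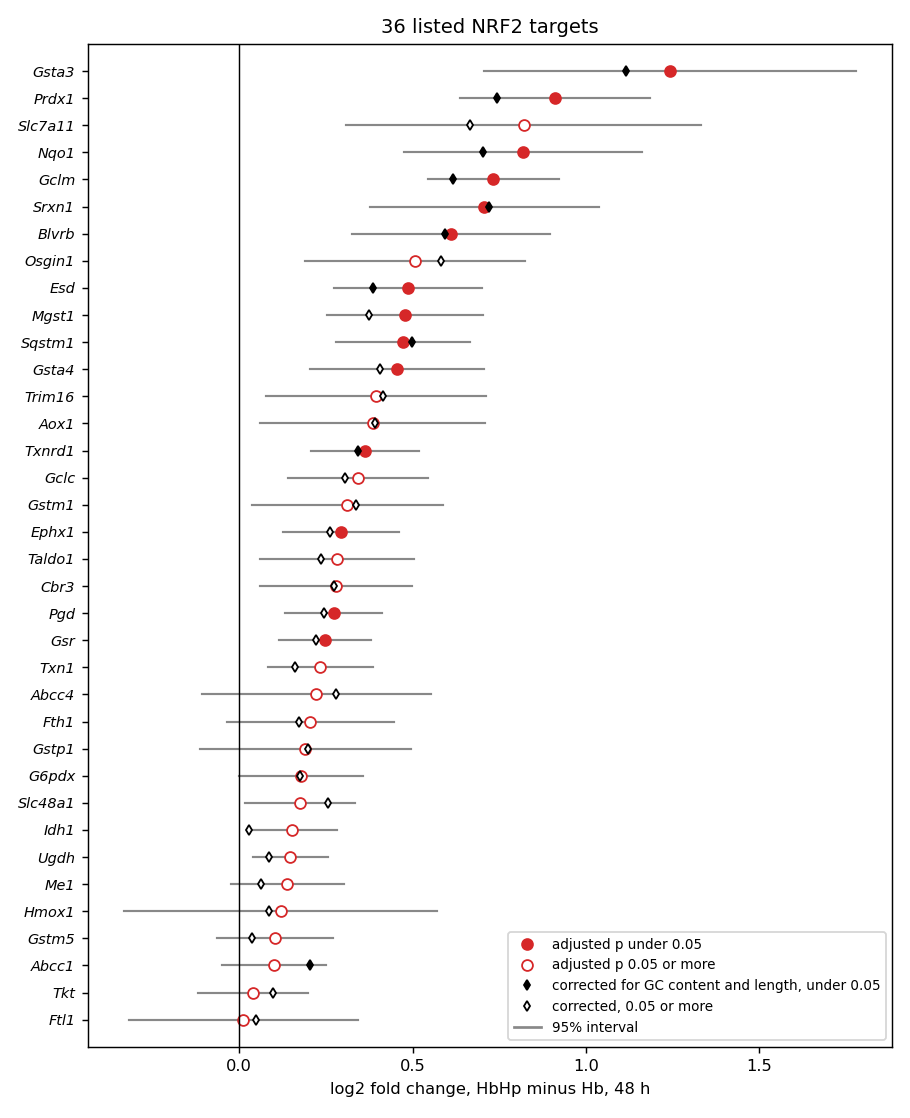
Log2 fold change HbHp minus Hb at 48 h of the 36 listed NRF2 targets, with 95% intervals (circles and lines) and after correction for GC content and length (diamonds), filled where the adjusted p is under 0.05. All 36 circles lie above 0, from 0.01 (Ftl1) to 1.24 (Gsta3), and 14 are filled.

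Genes of heme handling moved unevenly, with 1 of 15 listed genes of heme breakdown and transport called (higher) and a median of 0.0915. The called gene was Blvrb, a biliverdin reductase, at 31.1 to 54.4 CPM with Hb (median 39.95) and 59.3 to 114 CPM with HbHp (median 69.4). The ranges did not overlap, the highest value was that of HbHp replicate 1, and the difference was 0.61 (SE 0.143, adjusted p = 0.0152). Hmox1 itself did not pass. It was at 735 to 3233 CPM in controls, 2085 to 4745 CPM with Hb (median 2471) and 4502 to 6949 CPM with HbHp (median 5213), so that 6 of 8 HbHp libraries lay above every Hb library. The 3 Hb libraries of round 2 were at 4501, 4710 and 4745 CPM, next to the lower HbHp libraries, and the difference with batch and round as terms was 0.12 (95% interval -0.331 to 0.571, adjusted p = 0.838). The heme transporter Slc48a1 was 280 to 417 CPM with Hb and 426 to 547 CPM with HbHp. Its raw ranges, unlike those of Hmox1, did not overlap, and its fitted difference was 0.18 (adjusted p = 0.239).

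Alas1, the first enzyme of heme synthesis, was the called member of the 12 tested genes of that pathway. It was at 58.5 to 75.9 CPM in controls (median 64.3), 42 to 68.7 CPM with Hb (median 57.4) and 74.4 to 93.8 CPM with HbHp (median 84.5). All HbHp libraries lay above all Hb libraries, and the rise was 0.47 (SE 0.0861, adjusted p = 0.00242) and 0.54 after the GC and length correction (adjusted p = 0.000462). Against control, Alas1 differed by -0.25 with Hb (adjusted p = 0.0526) and by 0.22 with HbHp (adjusted p = 0.135), neither past the threshold.

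In the iron genes, 2 of 25 tested members were called, both higher (median 0.0752). Tfrc, the transferrin receptor that brings iron into cells, was 66.6 to 129 CPM in controls (median 115), 38.3 to 85.7 CPM with Hb (median 66.5) and 66.4 to 82.9 CPM with HbHp (median 73.7). The Hb libraries of round 2 were the lowest, at 38.3, 39.2 and 46.6 CPM, and all HbHp libraries, which are of that round, were above them. With the terms in the fit Tfrc was 0.77 higher with HbHp than with Hb (SE 0.121, adjusted p = 0.000245), and 0.93 in round 2 alone (adjusted p = 0.00861). Against control it fell by 0.71 with Hb (adjusted p = 7.39e-07) and differed by 0.06 with HbHp (adjusted p = 0.83). These 3 contrasts share libraries, and the values are given side by side. The second called gene was Ireb2, an iron regulatory protein (0.20, adjusted p = 0.0409, corrected 0.822), whose direction turned under another set of terms.

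The iron exporter Slc40a1 was 28.7 to 73.6 CPM with Hb (median 37.3) and 56.6 to 101 CPM with HbHp (median 75.9). The ranges overlapped and the fitted difference was 0.32 (adjusted p = 0.402). Ferritin heavy chain (Fth1) differed by 0.21 (adjusted p = 0.392) and light chain (Ftl1) by 0.01 (adjusted p = 0.98), over HbHp ranges of 7625 to 11027 CPM and 7030 to 10973 CPM. None of the 13 tested scavengers and receptors of hemoglobin and heme was called by edgeR or DESeq2, with 4 lower at an unadjusted p under 0.05 (6.46% of all genes). The Hb-Hp receptor Cd163 was low, at 2.00 to 8.61 CPM with Hb (median 4.84) and 1.81 to 4.94 CPM with HbHp (median 2.45), and differed by -0.71 (adjusted p = 0.288). Lrp1, a receptor of the heme-hemopexin complex, was 1350 to 1925 CPM with Hb and 1400.1 to 1720 CPM in 7 HbHp libraries, with 450 CPM in HbHp replicate 1. Its difference was -0.40 (adjusted p = 0.187), and -0.26 without that replicate (adjusted p = 0.213).

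Outside these pathways, several genes rose without belonging to 1 list. Trib3, a pseudokinase induced by the stress factor ATF4, was 6.91 to 16.8 CPM with Hb (median 12.3) and 18 to 31.1 CPM with HbHp (median 23). The groups did not overlap, and the difference was 0.69 (adjusted p = 0.036). Of 31 tested gene IDs of the ATF4 and amino acid response 25 were positive and 2 were called, Trib3 and Eif4ebp1 (median 0.103). Ddit3 entered this list under both of its IDs. Trib3 kept its call with the GC and length correction (adjusted p = 0.0344), but not with the correction and without HbHp replicate 1 (adjusted p = 0.065). Eif4ebp1 lost its call with the correction (0.43, adjusted p = 0.0339, corrected 0.115). No gene of the list was called in round 2 alone, in the 18 libraries alone, without both controls of batch 3 and round 2, or without HbHp replicate 1 or 5, Hb replicate 2 or 10, control replicate 9 of 48 h, or control replicate 19 or 20 of 24 h, each left out singly. Slc30a1, which exports zinc, rose by 0.30 (adjusted p = 0.0145), the only called gene of 10 metallothionein and zinc genes. The p53 targets Eda2r and Trp53inp1 rose by 0.56 (adjusted p = 0.0361) and 0.36 (adjusted p = 0.0477), and both calls were lost with the correction (adjusted p = 0.29 and 0.385).

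Ereg, a ligand of the EGF receptor family, was 3.29 to 5.15 CPM with Hb and 4.67 to 9.79 CPM with HbHp, 7 of 8 libraries being above the Hb range. It rose by 1.02 (SE 0.276, adjusted p = 0.0366), and the call was lost without HbHp replicate 1 (adjusted p = 0.07) and with the correction (adjusted p = 0.169). Clec4n, the myeloid lectin dectin-2, was 11.1 to 25.2 CPM with Hb (median 17) and 27.1 to 51 CPM with HbHp (median 31.5). It did not overlap and rose by 0.91 (adjusted p = 0.0194, corrected 0.0676). Of 10 tested myeloid C-type lectins it was the called one, and 4 were positive (median -0.13). Arl4d, a small GTPase, was at 1.01 to 1.97 CPM with Hb and 2.01 to 4.27 CPM with HbHp, and rose by 0.87 (adjusted p = 0.0149). The levels of Arl4d and Gsta3 rest on few reads.

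Some genes outside the naming rule were picked after their values were seen, for a small error beside a modest fold. Ikbkg, the regulatory subunit of the kinase that activates NF-κB, was 65.2 to 75.2 CPM with Hb (median 72.5) and 80.04 to 99.3 CPM with HbHp (median 88.3). It rose by 0.30 (SE 0.0459, adjusted p = 0.000213), with all 8 libraries above the Hb range. Ikbkg and the NRF2 target G6pdx lie head to head, and the sources used here do not say whether counting used strand, so reads of the pair may be shared. Gbe1, the glycogen branching enzyme, rose by 0.59 (adjusted p = 0.00223), the deacetylase Sirt1 by 0.34 (adjusted p = 0.00245) and the circadian repressor Nr1d2 by 0.39 (adjusted p = 0.00101). Over 42 alternative fits Sirt1 ranged from 0.077 to 0.39 (called in 35) and Nr1d2 from 0.067 to 0.55 (called in 36).

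The genes that fell fitted fewer of the lists. Hif3a, a member of the hypoxia-inducible factor family, was 8.77 to 14.9 CPM in controls, 6.79 to 11 CPM with Hb (median 9.16) and 1.16 to 6.17 CPM with HbHp (median 4.63). All 8 HbHp libraries lay below every Hb library, and it fell by 0.91 on the log2 scale (SE 0.19, adjusted p = 0.00688; without HbHp replicate 1, 0.00463). Of 23 listed targets of the HIF factors, 12 were positive and 1 was called, Epo, the erythropoietin gene (-0.26, adjusted p = 0.0194, corrected 0.0955), with a median of 0.0108. Thrombospondin 1 (Thbs1), a matrix protein, was 86.7 to 192 CPM with Hb (median 137) and 25 to 83.8 CPM with HbHp (median 64.1). The groups did not overlap, but the spread was wide and the call was at the threshold (-1.17, SE 0.333, adjusted p = 0.0478). It was lost without HbHp replicate 1 (adjusted p = 0.0853) and with the correction (adjusted p = 0.119).

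Prss35, a protease-like secreted protein, was 5.40 to 24.7 CPM with Hb and 1.98 to 5.04 CPM with HbHp, with the 3 Hb libraries of round 2 at 5.40 to 6.75 CPM. It fell by 0.84 (adjusted p = 0.0283, corrected 0.0607) and was not called without HbHp replicate 1 (adjusted p = 0.0548). Npnt, a matrix ligand of integrins, was 18.1 to 53.4 CPM with Hb and 11.4 to 17.7 CPM with HbHp. It fell by 0.72 (adjusted p = 0.0361, corrected 0.113). The guidance ligand Slit3 (-1.11, adjusted p = 0.0497), the lipid droplet protein Plin4 (-0.73, adjusted p = 0.0484) and Tmem179 (-0.58, adjusted p = 0.0479) were called by a narrow margin and overlapped in raw level, and their calls were lost with the correction (adjusted p = 0.264, 0.294 and 0.203). Dlk2, a Notch-family ligand (-0.78, adjusted p = 0.0137), Cda, cytidine deaminase (-0.73, adjusted p = 0.0142), and Gm45640 (-0.89, adjusted p = 0.0147) kept their calls with the correction, those of Dlk2 and Gm45640 not when HbHp replicate 1 was left out as well (adjusted p = 0.0508 and 0.0853).

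Called genes that fell by less included 3 groups. In sterol and fatty acid synthesis 26 of 30 members were negative (median -0.162) and 4 were called lower. The count was 0 without Hb replicate 10, without HbHp replicate 5, without control replicate 20 of 24 h and in round 2 alone. It was 1 without HbHp replicate 1 or Hb replicate 7 or 8, and 2 with the GC and length correction, and it reached 6 when other libraries were left out. Without both controls of batch 3 and round 2 it was 0, with batch as the only term 12 and with neither term 21. Fatty acid synthase (Fasn) was 454 to 530 CPM with Hb (median 489) and 113 to 420 CPM with HbHp (median 377). No library overlapped, and replicate 1 was the lowest at 113 CPM with the others at 328 CPM or more. Fasn fell by 0.53 (adjusted p = 0.0308) and by 0.39 without replicate 1 (adjusted p = 0.00105). The elongase Elovl6 (-0.25) and the cholesterol synthesis enzyme Dhcr7 (-0.32, corrected adjusted p = 0.14) were also called lower.

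In the chaperones of the endoplasmic reticulum 19 of 23 members were negative (median -0.0972), and calreticulin (Calr) and Hspa5 (BiP) were called lower. Calr was 850 to 1086 CPM with Hb (median 944) and 716 to 891 CPM with HbHp (median 865), with 3 HbHp libraries below the Hb range, and fell by 0.32 (adjusted p = 0.00688). Hspa5 fell by 0.22 (adjusted p = 0.043), with ranges of 661 to 760 CPM and 607 to 799 CPM that overlapped. With the GC and length correction 4 members of the list were called lower, and with libraries left out in turn 1 to 5. Cytosolic heat shock chaperones were mostly positive (14 of 18, median 0.124, 2 called higher, Dnajb4 and Chordc1), and neither call held with the correction (adjusted p = 0.0669 and 0.431).

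Genes of DNA replication were negative in 23 of 25 cases (median -0.191), with Cdc6 and Tk1 called lower. Cdc6, which loads the replicative helicase, was 8.10 to 11 CPM with Hb (median 8.92) and 4.93 to 6.58 CPM with HbHp (median 6.08). It fell by 0.49 (adjusted p = 0.0236, corrected 0.0642) and by 0.85 in round 2 alone (adjusted p = 0.00434). Thymidine kinase 1 (Tk1) was 23.1 to 30.7 CPM with Hb and 15.3 to 21.9 CPM with HbHp, and fell by 0.50 (adjusted p = 0.036, corrected 0.0521). Both genes were free of overlap. Mitotic genes were negative in 23 of 24 cases (median -0.157), and neither edgeR nor DESeq2 called any, with 4 lower at an unadjusted p under 0.05 (6.46% of all genes). Over 42 alternative fits, however, 0 to 24 of them were called lower, with medians from -0.690 to -0.094. The count over all genes changed in these fits as well.

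Further genes that fell, picked after their values were seen, were Pdxk, which makes the active form of vitamin B6, and the astrocyte potassium channel Kcnj10. Pdxk was 175 to 228 CPM with Hb and 89.3 to 172 CPM with HbHp and fell by 0.48 (SE 0.0893, adjusted p = 0.00268). Kcnj10 was 665 to 1085 CPM with Hb and 297 to 739 CPM with HbHp and fell by 0.40 (adjusted p = 0.036). For both the lowest value was that of HbHp replicate 1, without which the falls were 0.40 and 0.30 (adjusted p = 0.000479 and 0.0236). The neighbouring genes Tmem176a and Tmem176b fell by 0.34 and 0.32 (adjusted p = 0.00614 and 0.00199), with 7 of 8 HbHp libraries below the Hb range in each.

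**Figure D4:**
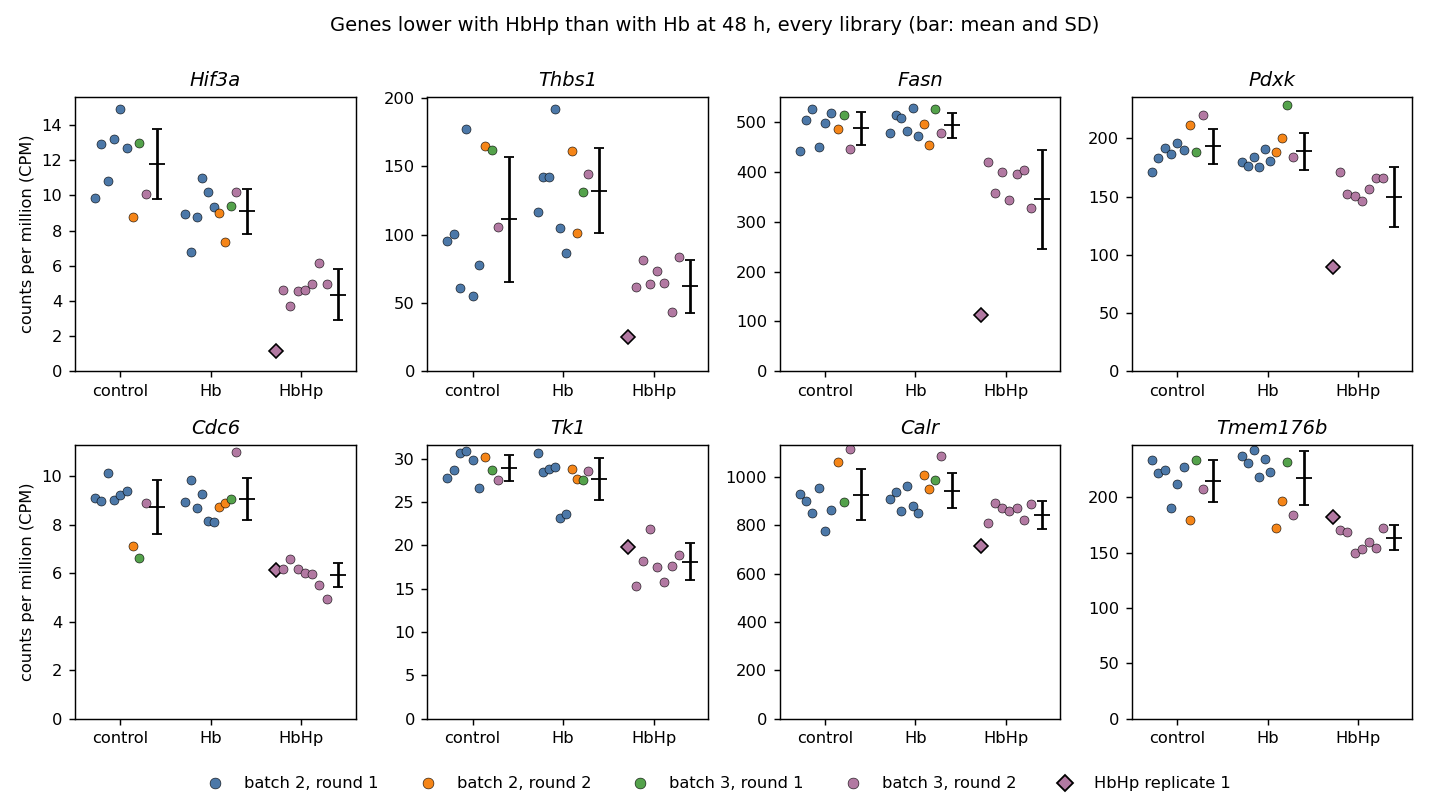
Level in CPM of 8 genes called lower with HbHp in every 48 h library of the control, Hb and HbHp groups, coloured by batch and round, with the group mean and SD as bars and HbHp replicate 1 as a diamond. For Hif3a, Thbs1, Fasn, Pdxk, Cdc6 and Tk1 all 8 HbHp libraries lie below the 10 Hb libraries, whereas the groups overlap for Calr and, in 1 HbHp library, for Tmem176b.

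Microglial genes leaned lower with HbHp without passing the test. All 15 tested genes of homeostatic microglia were negative (median -0.63). EdgeR called none and DESeq2 called 1, with 7 lower at an unadjusted p under 0.05 (6.46% of all genes). The purinergic receptor P2ry12 was 9.89 to 15.1 CPM with Hb (median 12.3) and 6.57 to 11 CPM with HbHp (median 8.73), 7 of 8 libraries being below the Hb range, and differed by -0.55 (adjusted p = 0.0838, with the GC and length correction 0.0478, and with the correction and without HbHp replicate 1 0.0729). For the fractalkine receptor Cx3cr1 the ranges overlapped (18.7 to 116 CPM and 20.8 to 61.5 CPM). The raw sum of the 15 genes was 1391 to 3522 CPM with Hb (median 1924) and 2368 to 3165 CPM with HbHp (median 2717), so that the raw medians and the fitted difference pointed in opposite directions. In bulk RNA, fewer cells of a type and less RNA per cell cannot be told apart. Border macrophage genes were likewise negative in 13 of 14 cases (median -0.545), none called by edgeR or DESeq2, with 7 lower at an unadjusted p under 0.05 (6.46% of all genes).

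Inflammatory genes showed no common direction. Of 24 tested cytokines and activation genes 13 were positive (median 0.0321), and edgeR called none while DESeq2 called 1 lower. The count at an unadjusted p under 0.05 was 2 higher and 4 lower (10.4% and 6.46% of all genes). Gpr84, a receptor for fatty acids on activated microglia, was 3.19 to 8.14 CPM with Hb (median 5.21) and 2.53 to 5.60 CPM with HbHp (median 4.26), and differed by -0.77 (adjusted p = 0.0873). The TNF receptor Tnfrsf1a was 229 to 270 CPM with Hb and 225 to 255 CPM with HbHp and differed by -0.08 (adjusted p = 0.444). Among 18 chemokines 6 were positive (median -0.138), and edgeR called none while DESeq2 called 1 lower. At 24 h the chemokine median was -0.606 and edgeR called 2, and the median of the cytokines and activation genes was -0.214 with 1 called. Ccl12 differed by -1.23 (adjusted p = 0.0753) over ranges of 3.93 to 12.3 CPM and 4.31 to 6.69 CPM, and by -1.38 in round 2 alone (adjusted p = 0.045).

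Markers of the tissue were present in every group, and no listed cell type was called in any member by edgeR or DESeq2, apart from the microglial gene above. Summed over 20 neuronal markers the level was 738 to 1184 CPM with Hb and 720 to 1102 CPM with HbHp, over 15 astrocyte markers 10882 to 15697 CPM and 11151 to 16860 CPM, and over 18 oligodendrocyte and myelin markers 21561 to 42435 CPM and 31364 to 39467 CPM. The 16 broad microglial and myeloid markers summed to 1735 to 6230 CPM with Hb and 3790 to 5756 CPM with HbHp. Choroid plexus and ependymal markers varied most, from 119 to 1207 CPM with Hb and from 152 to 1973 CPM with HbHp. The ranges overlapped for each of these lists, and their part in the differences above was not tested.

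The same comparison at 24 h (8 HbHp and 10 Hb libraries) called 46 genes (0.284%), 31 higher (0.191%) and 15 lower (0.0925%), among them 2 NRF2 targets, both higher. All HbHp libraries of 24 h were of batch 3 and round 2, and no Hb library of 24 h shared both labels. With the GC and length correction 9 were called (0.0555%), 4 higher (0.0247%) and 5 lower (0.0308%). No gene passed for a difference between 48 h and 24 h by edgeR (1225 at an unadjusted p under 0.05, smallest adjusted p = 0.0799), and DESeq2 called 1. Gclm, Tfrc, Ikbkg, Slc30a1, Sirt1 and Dlk2 were called at 24 h as well, with 0.59 (adjusted p = 0.00158), 0.60 (0.0175), 0.23 (0.0175), 0.34 (0.0175), 0.35 (0.0094) and -0.82 (0.0371). The 24 h values of Prdx1 (0.32, adjusted p = 0.295), Srxn1 (0.29, adjusted p = 0.447), Sqstm1 (0.21, adjusted p = 0.338), Cat (0.22, adjusted p = 0.268) and Alas1 (0.31, adjusted p = 0.1) were lower than at 48 h and missed the threshold. For Prdx1 the difference between the times was 0.59 with an adjusted p of 0.434. Both times share the terms estimated from the same fit.

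At 400 µM and 48 h (5 HbHp against 10 Hb libraries) 705 of 16473 genes were called (4.28%), 468 higher (2.84%) and 237 lower (1.44%), in a fit of all grouped libraries of batches 2 and 3. In that same fit the 200 µM comparison called 821 of 16473 genes, 518 higher and 303 lower. The values of single genes given above for 200 µM are from the fit of 55 libraries. The 400 µM comparison shares controls with the 200 µM comparison, and the values are set side by side. Among NRF2 targets this fit called 19 higher at 200 µM (median 0.359) and 16 higher at 400 µM (median 0.362). At 400 µM Gclm was at 0.90 (adjusted p = 9.01e-06), Prdx1 at 1.27 (adjusted p = 1.22e-07), Srxn1 at 1.01 (adjusted p = 0.00159), Gsta3 at 1.66 (adjusted p = 0.000742) and Alas1 at 0.83 (adjusted p = 1.01e-06). Tfrc was at 0.75 (adjusted p = 0.00134), close to its value at 200 µM in the fit of 55 libraries. Of 31 ATF4 and amino acid response IDs this fit called 8 higher at 200 µM and 14 at 400 µM. The ATF4 target Trib3 was at 1.23 at 400 µM (adjusted p = 4.47e-06). Slc48a1, not called at 200 µM in the fit of 55 libraries, was at 0.33 (adjusted p = 0.00663), and Hmox1 at 0.48 missed the threshold (adjusted p = 0.306). In sterol and fatty acid synthesis this fit called 8 of 30 genes lower at 200 µM (median -0.195). At 400 µM it called 15 of them lower (median -0.33), in DNA replication 9 of 25 (median -0.331) and in mitosis 8 of 24 (median -0.451). Hif3a (-0.96, adjusted p = 0.00507), Thbs1 (-1.14, adjusted p = 0.0358), Fasn (-0.49, adjusted p = 0.0152), Pdxk (-0.38, adjusted p = 0.00932) and Tmem176b (-0.28, adjusted p = 0.00201) fell at this dose too. Arl4d (0.02, adjusted p = 0.983), Cda (-0.12, adjusted p = 0.849) and Prss35 (-0.57, adjusted p = 0.178) were not called. Of 24 cytokines and activation genes 5 were called higher at 400 µM and 0 lower (median 0.42). Of 18 chemokines 3 were called higher and 1 lower (median 0.023). Whether the doses differ was not tested.

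Hp without Hb, at 400 µM for 48 h, was compared with control in the same fit. Several genes of the HbHp response differed from control there as well, at a dose that no 200 µM HbHp library matches. Gclm was 0.82 higher (adjusted p = 3.33e-06), Prdx1 1.06 (adjusted p = 3.48e-07), Sqstm1 0.58 (adjusted p = 8.69e-05), Alas1 0.39 (adjusted p = 0.00588) and Gsta3 1.94 (adjusted p = 5.14e-06). Tfrc, by contrast, differed by -0.07 (adjusted p = 0.767). The Hp libraries were spread widely, Gsta3 ranging from 1.40 to 17.2 CPM and Prdx1 from 897 to 2141 CPM over 11 libraries. The share of the HbHp response that Hp alone would give at 200 µM was not measured.

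**Figure D5:**
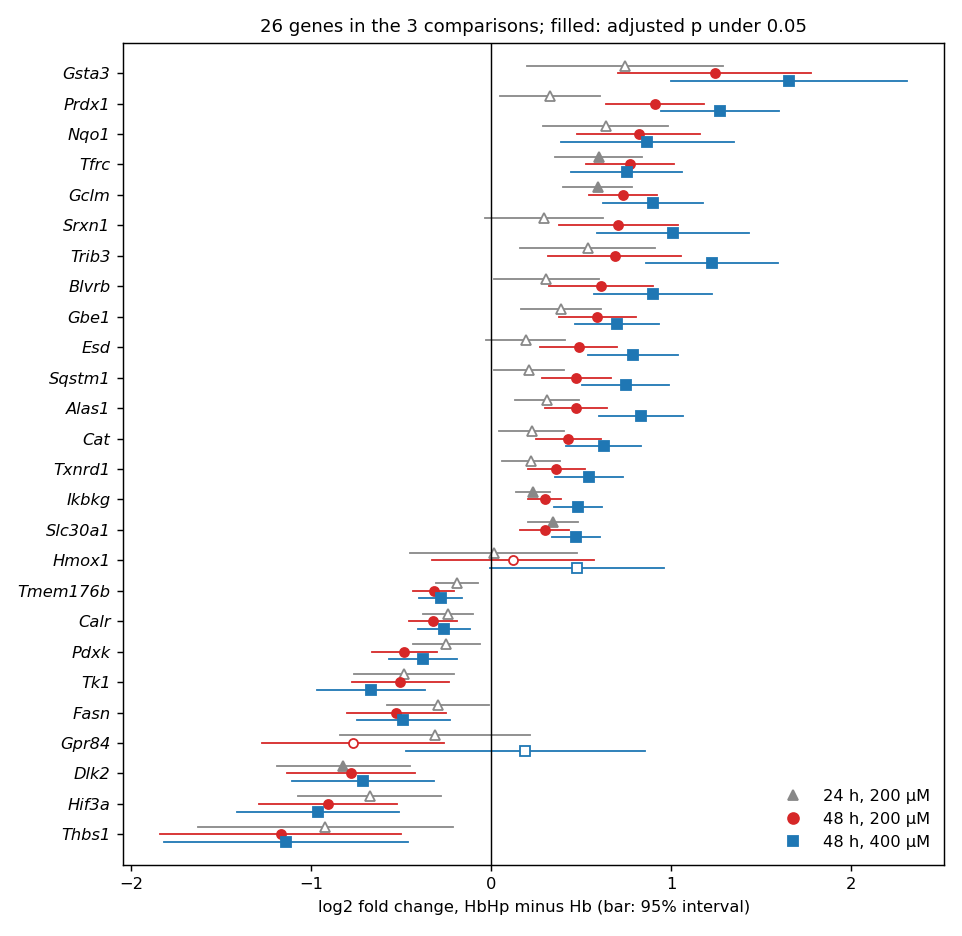
Log2 fold change HbHp minus Hb of 26 genes at 24 h and 200 µM (grey triangles), 48 h and 200 µM (red circles) and 48 h and 400 µM (blue squares), with 95% intervals and symbols filled where the adjusted p is under 0.05. Gclm and Tfrc are filled in all 3, whereas Prdx1 and Srxn1 are filled only at 48 h.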

How the data were processed

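The deposited values were raw counts per gene, one table per library, which the authors made with featureCounts on GRCm39 per the labels. The counting options and annotation are not given in the sources used here. Gene IDs were matched to symbols for 25424 of 25528. Groups, dose, time and batch came from the labels, and round from the opening of the library names. Of the 188 libraries, 21 had no group, and batch 1 was not used here.

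Counts were analysed with edgeR 4.0.16 in R 4.3.3. Scaling was by TMM, genes were kept by filterByExpr (count 10, total 15), and a quasi-likelihood F test was run with group, batch and round as terms in 55 libraries. Benjamini-Hochberg adjustment ran over all 16221 genes, with a threshold of 0.05. The 400 µM and Hp contrasts came from all grouped libraries of batches 2 and 3. DESeq2 1.42.0 was an alternative, with those of the closing section. The script was tested on simulated data. GC content and length came from the longest GENCODE transcript, and the correction was an offset per library over 20 bins of GC content by 5 of length.

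The text names the genes the study itself names, and the 10 most raised and 10 most lowered called genes (mean of at least 1 CPM, same direction in round 2 alone). Of the lists described it names chosen members, which are not always those with the smallest p, and of some lists none. The comparison, its members and the gene lists were chosen with earlier results of these data known. No 2 libraries of a group agreed within sampling noise (chi-square per degree of freedom at least 10.1). Some called genes are not reported here by name.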

Additional observations from a re-analysis of the deposited data

Results flagged for a closer look

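In 19 of 114 groups (57 genes described in the text, each in the Hb and the HbHp group), 1 library lay far from the rest of its group by Dixon's criterion, which chance meets in about 1 of 20 groups. HbHp replicate 1 was that library in 17. It was the highest of its group for Prdx1 (3508 CPM, next highest 2025 CPM), Esd (580 CPM, next 353 CPM), Hmox1 (6949 CPM, next 5535 CPM), Fth1 (11027 CPM, next 9069 CPM), Srxn1 (440 CPM), Slc48a1 (547 CPM), Hspa5 (799 CPM), Blvrb (114 CPM), Mgst1 (106 CPM), Gbe1 (50.5 CPM) and Nqo1 (43.6 CPM). It was the lowest for Fasn (113 CPM, next lowest 328 CPM), Lrp1 (450 CPM, next 1400.1 CPM), Kcnj10 (297 CPM, next 588 CPM), Gstm1 (176 CPM), Pdxk (89.3 CPM) and Calr (716 CPM). In the Hb group, replicate 10 was low for Nr1d2 (31.6 CPM, next 39.1 CPM) and replicate 9 high for Pdxk (228 CPM, next 200 CPM). The part of the unusual GC and length tilts of HbHp replicate 1 in these values was not tested.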

How the results depend on the processing

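Of 342 genes called at 48 h, leaving out 22 libraries in turn gave 77 to 381. The count was 540 with DESeq2, 237 with the count filter off (within 1.5 times), 1002 with batch as the only term (216 of the 342 among them, in the same direction), 321 with round as the only term (119 of the 342), 3176 with neither term (139 of the 342), 594 with a replicate block by library code (296 of the 342) and 821 in the fit of all grouped libraries of batches 2 and 3. It was 46 in the 27 libraries of 48 h, 2 in the 18 libraries alone, 16 in round 2 alone, 0 in batch 3 alone, 75 with the GC and length correction, and 40 with that correction and without HbHp replicate 1. It was 7 without both controls of batch 3 and round 2, and 18 without these and HbHp replicate 1. The 46 genes of 24 h became 161 with DESeq2, 10 with no filter on low counts, 378 with batch only, 6 with round only, 100 in that larger fit, 0 in round 2 alone (667 at an unadjusted p under 0.05) and 9 with the correction. The difference between the times went from 0 to 1 with DESeq2. At 400 µM, 705 became 1355 with batch only and 460 in round 2 alone. A replicate block by the number in the titles could not be fitted with both terms and was run with the round term alone, where 2 genes were called, mt-Co2 and mt-Co3, both lower and neither among the 342. The numbers do not pair the libraries (8 same-numbered pairs, correlations -0.269 to 0.422, and 1 of 8 HbHp libraries correlated best with its own number). Directions turned for Gsr (-0.072) and Ireb2 (-0.12) with neither term, and for Ireb2 (-0.078) and Tmem179 (0.15) with the number block. Among genes not called, Slc7a11 (-0.21) turned with neither term, and Ftl1 and Tnfrsf1a kept their sign in 36 and 38 of 42 alternatives. The causes were not tested. The corrections for GC content and length, the number block with the round term and the fits without the controls of batch 3 and round 2 were chosen after seeing the data.

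The design limits these results more than depth does: all HbHp libraries sit in 1 batch and 1 round, and 1 Hb library shares both.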
